A study of Nannochloropsis oceanica with 12 samples.

Results

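The change between 24 h and 12 h in the transcriptome of M2, a line of the marine alga *Nannochloropsis oceanica* IMET1 in which RNA interference targets the carbonic anhydrase CA2, was described from the 5 distinct M2 libraries among the 12 labelled samples of the series. The tested libraries were 3 of M2 at 24 h, set against 2 of M2 at 12 h. Per the labels, M2 cells were grown to mid-logarithmic phase under continuous light with 5% CO2 in air, washed, put into fresh medium at equal cell numbers and kept under 5% CO2, and polyadenylated RNA was sequenced after 24 h and 12 h with 3 biological replicates for each. Wild-type IMET1 (WT) was treated in the same way, with 3 libraries at 24 h and 3 at 12 h. M2 is a single knockdown line, and neither the promoter that drives the silencing construct nor the gene ID of CA2 can be read from the labels, and no CA2 level is reported for these libraries. Carbonic anhydrases speed the interconversion of CO2 and bicarbonate, and many algae use them to concentrate inorganic carbon around Rubisco, the enzyme that fixes CO2. *Nannochloropsis* species are known for storing triacylglycerol, and the labels place all cells at high CO2 at both times, so the comparison concerns time after transfer and not a shift in CO2.

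The tables hold FPKM values (fragments scaled to transcript length and library total) for 9756 genes, whose IDs give a scaffold and a running number and, for all but DGAT1A, no gene name. None of them (0) matched the reference gene table used here. Genes are therefore described by level, by direction and by place, and the identity of the cells was not checked against marker genes. The 12 h table of M2 has a last column that repeats the header of replicate 2. It matched replicate 1 multiplied by 0.723 to within 0.1% in 9646 of 9647 genes with signal, so it was not counted as a library. Read depth is unknown, and FPKM sums lay between 606886 and 610781 in the 5 libraries. Steps between low values put the worth of 1 read in M2 12 h replicate 1 at 4.08 times that in replicate 2, so replicate 1 is the shallower library. Between the 24 h libraries the SD of the log2 difference over genes was 0.143 to 0.145, and between the 12 h libraries it was 0.231. For genes under 5 FPKM these SDs were 0.281 to 0.293 at 24 h and 0.444 at 12 h, against 0.0565 to 0.0605 at 24 h and 0.0822 at 12 h for genes over 100 FPKM.

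Among the genes of M2 that changed at least 2-fold with time, rises far outnumbered falls. Of 9564 genes tested, 3170 were higher and 3188 lower at 24 h than at 12 h (limma on log2 of scaled FPKM plus 1, adjusted p under 0.05), which is 33.1% and 33.3% of the genes tested. The scaling sets the typical gene near 0 and thereby much of this near-equal split, which was 3442 and 2854 for FPKM as deposited, 3488 and 2796 with an equal sum and 2667 and 3534 with quantile normalization. Among the genes called, 776, or 8.11% of those tested, were at least 2-fold higher, whereas 87 genes, or 0.91%, were at least 2-fold lower. These are called strong rises and strong falls below. Rises thus made up 89.9% of the strong changes, 8.92 for every fall. A test against a minimum change of 2-fold (limma treat) left 306 rises and 31 falls.

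Falls were the larger number among small changes and rises among large ones. Under 1.2-fold there were 347 rises and 624 falls, and between 1.2-fold and 1.5-fold 1181 rises and 1827 falls. Between 1.5-fold and 2-fold rises were the larger number, with 866 against 650. From there on falls were few: 574 rises and 74 falls between 2-fold and 3-fold, 153 and 8 between 3-fold and 4-fold, and 49 and 5 at 4-fold or more. The median log2 change over all genes tested was -0.0025, with the 1st percentile at -0.97 and the 99th at 1.81, so the upper tail reached further from the median than the lower one. The number of small falls depends on where the scaling puts 0, here near the median gene. In the class from 1.2-fold to 1.5-fold there were 1255 rises and 1643 falls for FPKM as deposited, 1283 and 1618 with an equal sum and 1044 and 2011 with quantile normalization. Between 1.5-fold and 2-fold quantile normalization turned the order, with 700 rises and 778 falls. In each class above 2-fold rises outnumbered falls under these 3 scalings too, at 77.3% to 96.6% of the changes.

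**Figure D1:**
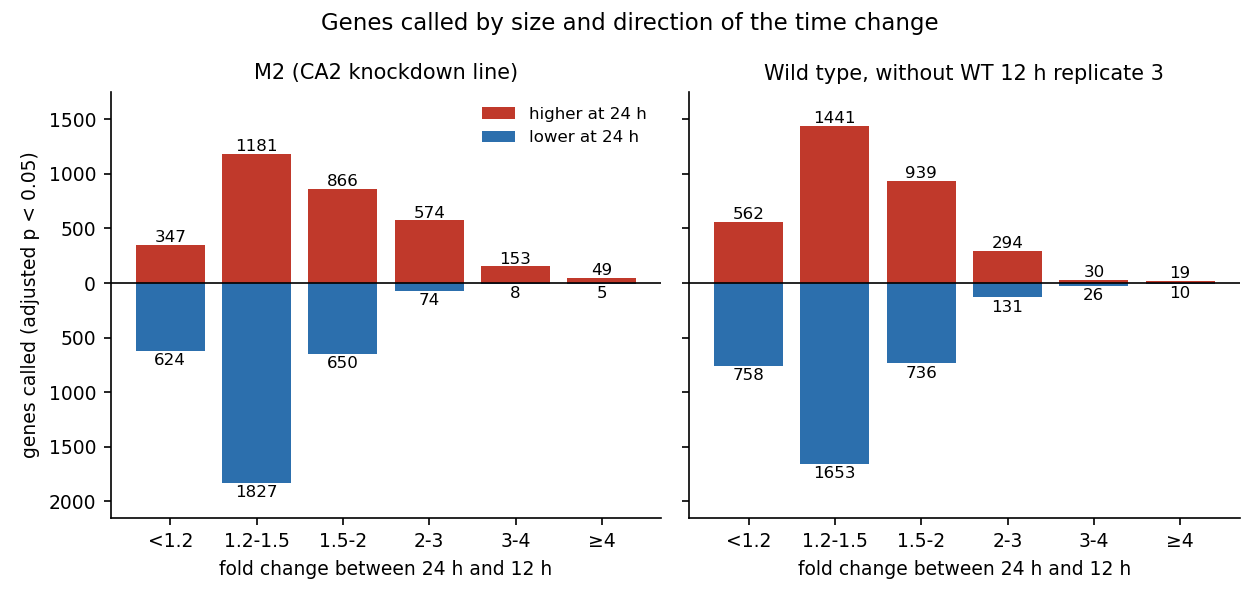
Number of genes called (adjusted p under 0.05) in each class of fold change between 24 h and 12 h, with genes higher at 24 h drawn upward and genes lower at 24 h drawn downward, for M2 on the left and for WT without its 12 h replicate 3 on the right. In M2 falls outnumber rises under 1.5-fold (1827 falls and 1181 rises in the 1.2 to 1.5 class), and above 2-fold rises outnumber falls in each class (574 rises and 74 falls in the 2 to 3 class).

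Single libraries showed the same excess without a fitted model. In the 6 pairs of a 24 h with a 12 h library, 751 to 836 genes were at least 2-fold higher and 89 to 123 at least 2-fold lower at 24 h, a ratio of 6.65 to 8.54. Pairs within the 24 h group had 2 to 5 genes at least 2-fold apart in a given direction, and the 12 h pair had 17 genes higher and 43 lower in replicate 1. The 512 strong rises that reached 2-fold in all 6 pairs stood against 55 strong falls that did, and over all genes tested these counts were the same. For 775 of the 776 strong rises every 24 h library lay above both 12 h libraries, and for all 87 strong falls every 24 h library lay below them. Such separation was common over all genes tested, at 38.7% upward and 39% downward. The pairs reuse the 5 libraries of the fit, and the strong sets were chosen on them. These counts therefore describe the same values and are no separate support. Without M2 12 h replicate 1, the shallower library, there were 741 strong rises and 79 strong falls, and without M2 12 h replicate 2 there were 823 and 113.

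The merged 12 h column of M2, which the authors deposited beside the replicates, gave another picture. Between the authors' merged columns, 636 genes were at least 2-fold higher and 951 at least 2-fold lower at 24 h, so rises were 40.1% of these changes. The median log2 change over the genes was 0.37 there, and relative to that median 140 genes were at least 2-fold higher and 1319 lower. No gene (0 of 9564) of the merged 24 h column was 2-fold away from the mean of its 3 libraries. In the merged 12 h column 1380 genes were at least 2-fold higher and 492 at least 2-fold lower than the mean of its 2 libraries, with r = 0.809 across genes on the log2 scale. Of the 776 strong rises, 441 were higher at 24 h in the merged columns and 176 at least 2-fold higher. Their median log2 change there was 0.23, below the 0.37 of all genes compared, so the 441 are no sign of agreement. Of the 87 strong falls, 67 were lower and 10 at least 2-fold lower, with a median of -0.35. Every count of strong changes in M2 therefore rests on the 2 library columns at 12 h. What else entered the merged 12 h column was not tested, and M2 12 h replicate 3 was not analysed here.

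**Figure D2:**
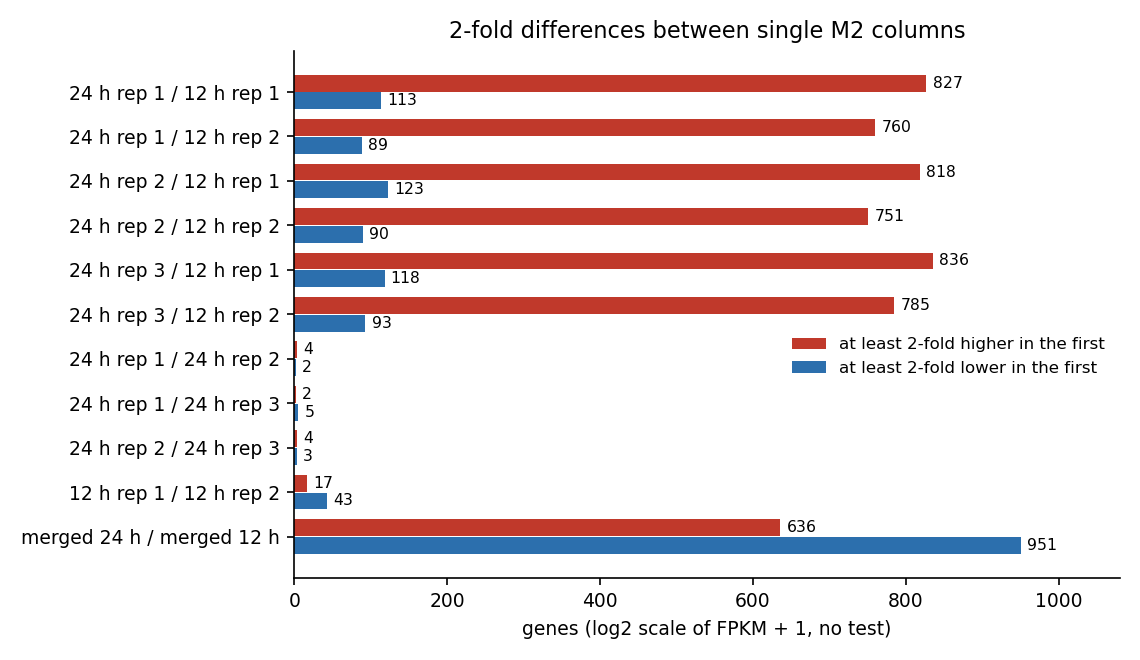
Genes at least 2-fold higher (upper bar) or lower (lower bar) in the first than in the second column named, for the 6 pairs of M2 libraries across times, the 4 pairs within a time, and the authors' merged columns, on the log2 scale of FPKM plus 1 and without a test. The 6 pairs across times show 751 to 836 rises and 89 to 123 falls, and the merged columns show 636 rises and 951 falls.

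Strong rises were mostly genes of low level at 12 h. Their 12 h means had a median of 6.90 scaled FPKM with quartiles of 3.05 and 16.1, beside a 24 h median of 19.0 with quartiles of 9.64 and 43.9. Strong falls lay higher, with medians of 27.2 scaled FPKM at 24 h and 63.8 at 12 h. Over all genes tested the medians were 25.0 at 24 h and 24.7 at 12 h. Both sets were chosen by the change between these levels. That choice favours low 12 h levels among strong rises and high ones among strong falls. In bulk RNA, a change of the level in every cell and a change in the share of cells that carry the transcript cannot be told apart.

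Classes set by the mean level over the 5 libraries, which gives 24 h more weight than 12 h (3 libraries against 2), held different shares of strong rises. Of 558 genes under 5 scaled FPKM, 19.4% were strong rises and 0.538% strong falls. Between 5 and 20 FPKM, 11.2% of 3347 genes were strong rises and 0.837% strong falls, and between 20 and 100 FPKM the shares were 5.13% and 0.674% of 4601 genes. Above 100 FPKM, 5.39% of 1058 genes were strong rises and 2.36% strong falls, so the excess was smallest there and still in the same direction. With both times weighted equally, 205 genes moved to another class, and the shares of strong rises were 21.9% under 5 FPKM, 11.3% from 5 to 20, 4.84% from 20 to 100 and 4.56% above 100, where strong falls were 2.79%. In the classes by the mean over the 5 libraries the median log2 change was 0.48 in the class under 5 FPKM, 0.11 from 5 to 20, -0.10 from 20 to 100 and -0.16 above 100. Low classes are also those in which libraries of one time differed most (the SDs above), and the part of that noise in the share of strong calls was not tested. Among strong rises, 13 were at 0 in one of the 12 h libraries and 1 in both, so few of them rest on a gene without signal at 12 h. Over all genes tested these counts were 18 and 1, so most genes of this kind were strong rises.

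**Figure D3:**
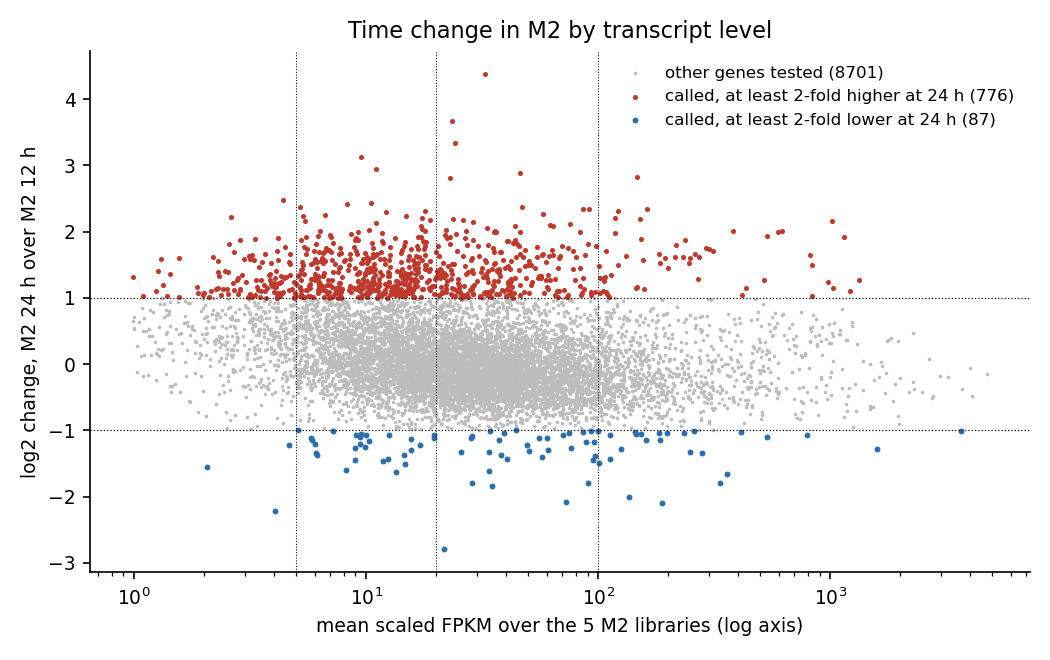
Log2 change between 24 h and 12 h in M2 (vertical axis) against the mean scaled FPKM over the 5 M2 libraries (horizontal log axis), 1 point per gene, with 776 strong rises in red and 87 strong falls in blue. Dotted lines mark 2-fold changes and the bounds of the level classes at 5, 20 and 100 FPKM. Red points crowd the range under 20 FPKM, and blue points are spread more evenly.

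The whole distribution of levels was narrower at 24 h. The lower quartile of log2(FPKM + 1), with FPKM as deposited, was 3.80 in each of the 24 h libraries, against 3.53 and 3.56 at 12 h, whereas the upper quartile was 5.68 at 24 h and 5.70 and 5.68 at 12 h. Genes with at least 10 FPKM numbered 7956 to 7980 at 24 h, against 7428 and 7471 at 12 h. The SD of log2 values over genes was 1.65 at 24 h, against 1.82 and 1.80 at 12 h. The highest 100 genes held 24.2% to 24.4% of the FPKM sum at 24 h and 25.5% at 12 h in both libraries. Of 8 such measures per library, 7 did not overlap between the times (exact permutation test, 2-sided, p = 0.2 for each, adjusted p = 0.229), and 0.2 is the smallest p that 3 against 2 libraries allow. WT libraries had lower quartiles of 3.81 to 3.82 at 24 h and 3.71 and 3.73 at 12 h in replicates 1 and 2 (3.01 in replicate 3).

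In transcript mass the strong sets were closer to each other than in number. The strong rises held 7.61% to 7.67% of the scaled FPKM of the genes tested at 24 h, against 2.58% and 2.64% at 12 h, and the strong falls held 1.40% to 1.41% at 24 h and 3.14% and 3.11% at 12 h. Summed over genes, 4750 genes gained 81062 scaled FPKM, of which strong rises made up 36.6%. Another 4814 genes lost FPKM, and the 87 strong falls made up 10.7% of that loss, so most of the loss came from genes that changed by less than 2-fold. FPKM is scaled within each library, so these values are shares of the measured RNA and not amounts per cell.

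Among strong rises with at least 5 scaled FPKM at the higher time and groups that did not overlap, scaffold00214.g6089 had the largest log2 change. It had 53.0, 53.1 and 53.4 scaled FPKM at 24 h, against 1.25 and 2.04 at 12 h. All 24 h values lay far above both 12 h values, at 53.2 ± 0.213 (SD, n = 3) and 1.65 ± 0.559 (SD, n = 2). Its log2 change was 4.37 (limma adjusted p = 9.3e-08, SE 0.12), which on this scale understates the ratio of the means, 32.3. The gene with the next number on that scaffold, singled out after its values were seen, had 227.8, 227.1 and 218.6 scaled FPKM at 24 h and 29.7 and 31.8 at 12 h, a log2 change of 2.83 (SE 0.04). The largest rise in scaled FPKM was in scaffold00182.g5608. That gene had 1615, 1636 and 1609 scaled FPKM at 24 h, against 425 and 432 at 12 h, and its log2 change was 1.92 (limma adjusted p = 1.1e-09, SE 0.02). It ranked 27 by mean level at 24 h and 217 at 12 h.

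The deepest fall was in scaffold00140.g4514, with 5.13, 6.47 and 5.58 scaled FPKM at 24 h, against 44.4 and 46.3 at 12 h. The groups were apart by several times their spread, at 5.73 ± 0.683 (SD, n = 3) and 45.3 ± 1.34 (SD, n = 2), which gave a log2 change of -2.79 (limma adjusted p = 3.2e-07, SE 0.1). In scaled FPKM the largest strong fall was in scaffold00069.g2383, the most abundant transcript of M2 at 12 h. It had 2554, 2622 and 2606 scaled FPKM at 24 h and 5290 and 5188 at 12 h, and the log2 change was -1.01 (limma adjusted p = 4.4e-09, SE 0.01). In a joint fit of all 4 groups the call was lost with WT 12 h replicate 3 (limma adjusted p = 0.26) and kept without it (5.4e-13). At 24 h it ranked 8. In the authors' merged columns this gene had 2626 FPKM at 24 h and 2187 at 12 h, the opposite order. The other named genes kept their direction there: scaffold00214.g6089 had 53.8 and 4.74 FPKM, scaffold00182.g5608 had 1640 and 773, and scaffold00140.g4514 had 5.80 and 28.2, each at 24 h and at 12 h.

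DGAT1A, the ID that carries a name, is named for an enzyme that adds the last acyl chain of triacylglycerol, the storage lipid. It had 25.2, 24.7 and 23.0 scaled FPKM at 24 h, against 29.4 and 30.4 at 12 h. The 24 h values were all lower than both 12 h values, by a log2 change of -0.29 that is small beside the strong falls (limma adjusted p = 0.0049, SE 0.06). In a joint fit of all 4 groups this call too was lost with WT 12 h replicate 3, the library that stands apart (limma adjusted p = 0.23), and kept without it (0.00064).

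**Figure D4:**
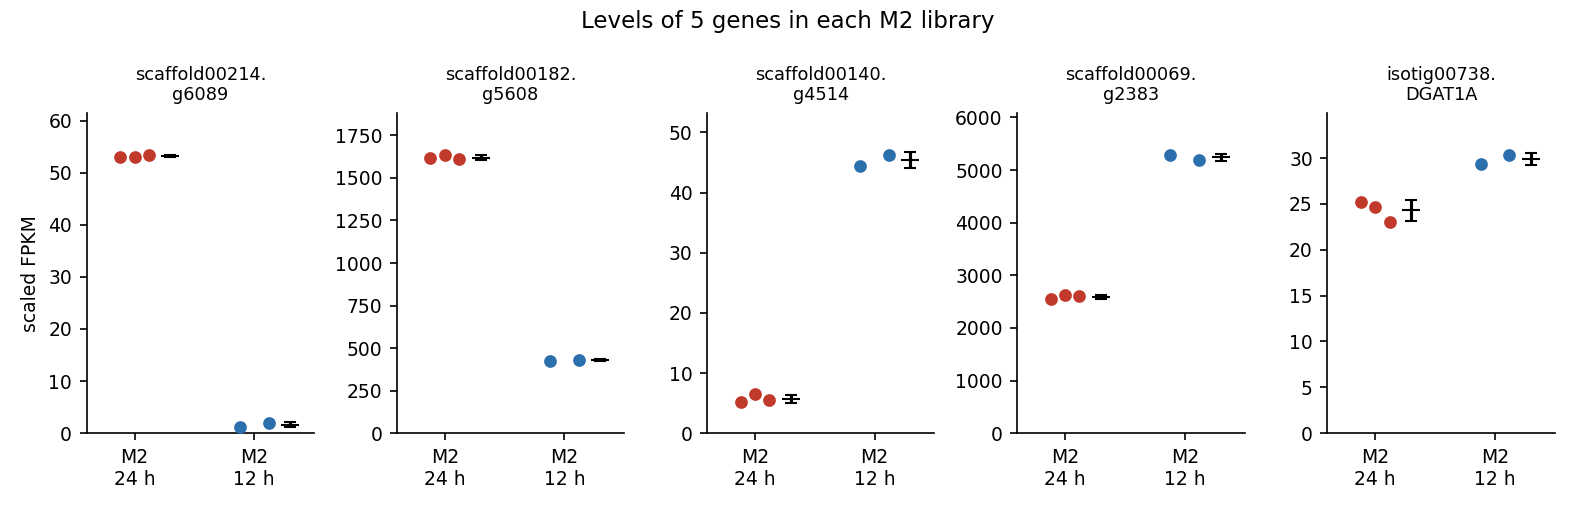
Scaled FPKM of the 4 genes named by rule and of DGAT1A in each M2 library, with 24 h to the left of 12 h; points are libraries, and the bar beside them is the mean ± SD (n = 3 at 24 h, n = 2 at 12 h). Each vertical axis starts at 0 and has its own range. No gene shows overlap between the times, which the naming rule required of the 4 genes, as it did a change of at least 2-fold. DGAT1A, not chosen by that rule, shows the smallest relative difference, with means of 24.3 at 24 h and 29.9 at 12 h.

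Strong rises were spread over the genome and also stood side by side in it. On each of the 33 scaffolds with at least 50 genes tested, strong rises outnumbered strong falls. They made up 4.85% to 14.0% of the genes of these scaffolds, with a median of 8.16%. Of all genes tested, 8.11% were strong rises and 0.91% strong falls, so the order on single scaffolds largely restates the excess. A consecutively numbered gene on the same scaffold was also a strong rise for 239 of the 776, or 30.8%. Over all genes tested the share with a strong rise beside them was 13.4%. For strong falls these shares were 9.20%, or 8 of 87, and 1.56%. Most strong rises (537) had no neighbour in the set, 75 runs held 2 genes and 14 held 3. The libraries kept no strand, so reads of neighbouring genes that overlap cannot be told apart, and the extent of that is not known from these files.

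Scaffold00295, which had the highest share of strong rises among these 33 scaffolds, held 53 of them. Of these, 14 formed the longest run of consecutively numbered genes, noticed after the values were seen, so the run adds to that share. Their means were 9.66 to 85.2 scaled FPKM at 24 h, against 3.65 to 34.3 at 12 h, and their log2 changes in M2 were 1.07 to 2.27 with a median of 1.41. In WT without its 12 h replicate 3, the log2 changes of the same genes were -0.07 to 1.71, with a median of 0.37, and 3 of the 14 reached 2-fold. The authors' merged columns held 9.78 to 86.2 FPKM for them at 24 h and 17.7 to 150.04 at 12 h, and 12 of the 14 were higher at 12 h there.

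WT changed with time in the same sense but with a smaller excess. WT 12 h replicate 3 stands apart from all other libraries, with an FPKM sum of 780704 and 538 genes at 0, so WT values are given without it and with it. Without it 3285 genes were higher and 3314 lower in WT at 24 h (34.3% and 34.6% of 9591 tested, limma), a split set largely by the scaling as in M2. Of these, 343 were strong rises (3.58%) and 167 strong falls (1.74%). Rises were 89.9% of the strong changes in M2, against 67.3% in WT. From 2-fold to 3-fold M2 had 574 rises and 74 falls, and WT had 294 rises and 131 falls. From 3-fold to 4-fold the numbers were 153 and 8 in M2 and 30 and 26 in WT, and at 4-fold or more 49 and 5 in M2 and 19 and 10 in WT. With WT 12 h replicate 3, 300 genes were called in WT (3.12% of 9602), of which 88 were strong rises (0.916%) and 52 strong falls (0.542%). By level, the shares of strong rises in WT without that library were 11.8% under 5 FPKM, 4.07% from 5 to 20, 2.18% from 20 to 100 and 4.66% above 100, so that M2 and WT were closest among abundant transcripts.

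The difference between the time changes of the lines was tested directly, as an interaction of line and time. With all 11 libraries it was called for 34 genes (0.355% of 9589, limma), of which 16 (0.167%) had a time change at least 2-fold higher in M2 than in WT and 4 (0.0417%) at least 2-fold lower. Without WT 12 h replicate 3, 3415 genes were called (35.7% of 9579), 1957 (20.4%) with a higher and 1458 (15.2%) with a lower time change in M2. By at least 2-fold, 186 (1.94%) were higher and 33 (0.345%) lower. The median log2 time change of these 186 genes was 1.48 in M2 and 0.24 in WT, and 148 of them were strong rises in M2, as were 8.11% of all genes tested in M2. For the 33 genes the medians were 0.11 in M2 and 1.63 in WT. The interaction contains the M2 change that defines strong rises, so the medians and the overlap follow in part from the choice of genes. The call of most genes thus depends on leaving out 1 WT library, and in the fit with all libraries leaving out M2 12 h replicate 2 gave 0 genes (limma, 729 at an unadjusted p under 0.05).

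The strong rises of M2 were also set beside the levels of WT at each time. On 1 scale for the 10 libraries without WT 12 h replicate 3, their median level was 19.3 FPKM in M2 and 17.7 in WT at 24 h, and 7.02 in M2 and 10.7 in WT at 12 h. At 12 h 725 of the 776 genes were lower in M2 than in WT, with a median log2 difference of -0.52, and at 24 h 491 were higher in M2, with a median of 0.14. These are 93.4% and 63.3% of the set, against 48.4% and 55.5% of all genes tested, so at 24 h the share was near that of all genes. These genes were chosen by the change in M2, which favours genes low in M2 at 12 h, so the counts are descriptions. Of the 775 genes that could be set beside WT, 752 had a positive change there, 203 were strong rises in WT and 6 were called lower, with a median log2 change of 1.31 in M2 and 0.71 in WT. Of all 9556 genes set beside WT, 4707 had a positive change there, 332 were strong rises and 3314 were called lower. With WT 12 h replicate 3 included, the WT median of the strong rises of M2 was 0.39. In that fit 55 of them were strong rises in WT, against 86 of all genes tested in M2. The 87 strong falls were of like size in the lines, with medians of -1.21 in M2 and -1.18 in WT. Without that library 58 of them were strong falls in WT as well, against 167 (1.74%) of the 9591 genes tested in WT.

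**Figure D5:**
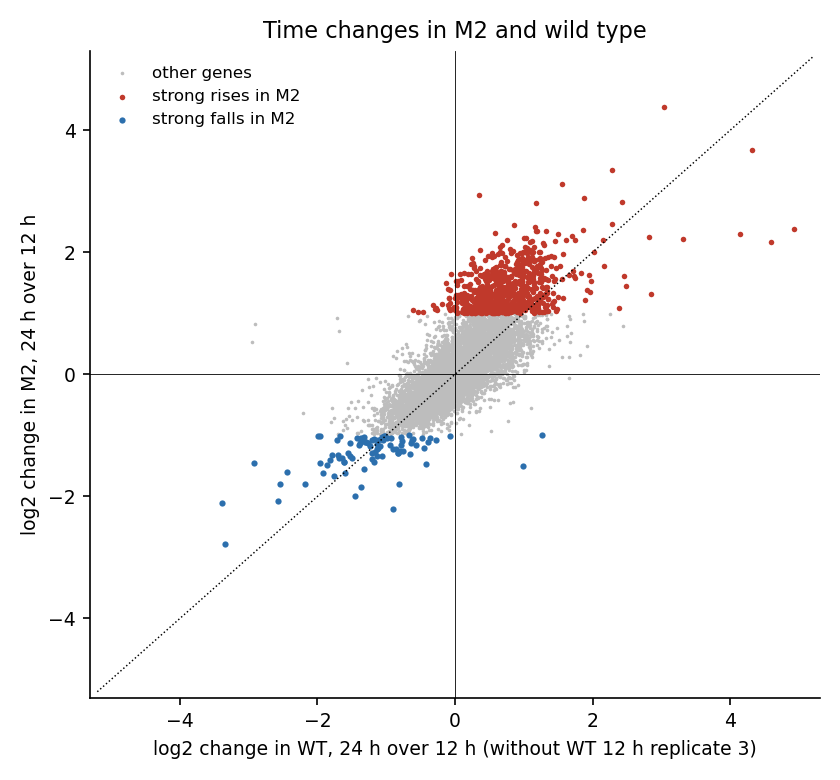
Log2 change between 24 h and 12 h in M2 (vertical axis) against that in WT without its 12 h replicate 3 (horizontal axis), 1 point per gene, with strong rises in M2 in red and strong falls in blue; the dotted line marks equal changes. The red points lie mostly above the line, with medians of 1.31 in M2 and 0.71 in WT, and the blue points lie around it.

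For the named genes, the WT changes went the same way as in M2. Except for DGAT1A, these genes were chosen by their change in M2, which the interactions given here contain. Scaffold00214.g6089 had 50.9, 51.4 and 49.3 FPKM as deposited in WT at 24 h and 5.19, 5.19 and 17.7 at 12 h, so its lower 12 h level in M2 accompanied a larger change (interaction 1.34 in log2 units with SE 0.14; limma adjusted p = 3.5e-05 when WT 12 h replicate 3 is left out, and 0.33 with it). Scaffold00182.g5608 had 1488, 1445 and 1450 FPKM in WT at 24 h and 531, 531 and 574 at 12 h. Scaffold00140.g4514 had 6.65, 7.12 and 7.00 FPKM in WT at 24 h and 76.0, 79.9 and 139.7 at 12 h, a deeper fall than in M2 (limma adjusted p of the interaction 0.0047 when WT 12 h replicate 3 is left out, and 0.49 with it). Scaffold00069.g2383 had 1157, 1147 and 1128 FPKM in WT at 24 h and 4339, 4417 and 821 at 12 h, and in 12 h replicate 3 it was lower than at 24 h, as it was in the merged 12 h column of M2. DGAT1A had 22.9, 22.4 and 23.1 FPKM in WT at 24 h and 25.8, 24.8 and 26.1 at 12 h, and its interaction was not called (-0.13 in log2 units with SE 0.08; limma adjusted p = 0.24 when WT 12 h replicate 3 is left out).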

How the data were processed

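Polyadenylated RNA of M2 and WT was sequenced as read pairs without strand information, per the labels' protocols. The authors deposited FPKM values, with a table for each of the 4 groups and merged columns per group. The submitters' processing notes name TopHat2 2.0.4 and Cufflinks 2.0.2. For genome build, annotation and joint normalization, the sources used here give nothing. Each time has its own table, so time and table cannot be told apart. The rescaled copy, 1 column, was not used.

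The 5 M2 libraries were scaled by median-of-ratios factors over genes above 0 in all of them. Genes with a mean of at least 1 FPKM were tested on log2(scaled FPKM + 1), which understates changes of low genes, with limma 3.58.1 in R 4.3.3 (moderated statistics with an intensity trend, 2-sided, Benjamini-Hochberg over all genes tested, threshold 0.05), without a replicate block. No count model was applied to these FPKM values. WT was fitted alone in the same way, and the interaction was fitted on all groups. Scripts were tested on simulated data. Tables and figures used Python 3.11.15, scipy 1.17.1 and matplotlib 3.10.9. P-values measure the spread between the libraries used, which the labels call biological replicates. For M2 at 12 h these were 2 libraries, so any spread that replicate 3 would add is not in them. In WT the median SE of the log2 change was 0.0667 without 12 h replicate 3 and 0.286 with it.

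Named genes were, in each direction, the strong change with the largest log2 change and the one with the largest difference in scaled FPKM, among genes of at least 5 scaled FPKM in the higher group whose libraries did not overlap, and DGAT1A. Members, lists and settings were chosen with earlier results of these data known. Lists of pathway genes could not be formed, since the IDs carry no names.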

Additional observations from a re-analysis of the deposited data

Results flagged for a closer look

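By the interaction test (limma), 34 genes changed differently with time in M2 and WT when every library was used, and 3415 when WT 12 h replicate 3 was left out. Without that library the 4 genes named by rule were among those called. The time change in M2 minus that in WT was 1.34 on the log2 scale for scaffold00214.g6089 and 0.47 for scaffold00182.g5608. It was 0.54 for scaffold00140.g4514 and 0.94 for scaffold00069.g2383, the last 2 being smaller falls in M2 than in WT. These genes were chosen by their change in M2, which the interaction contains, so the 4 calls are descriptions. Of all genes tested, 35.7% were called without that library. With all libraries no gene of these 4 was called (limma adjusted p = 0.25 to 0.84).

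The authors' merged M2 12 h column, which entered no test, held values that the library columns do not: 1380 genes were at least 2-fold higher in it than in the mean of the M2 12 h libraries. Between the merged columns 951 genes were at least 2-fold lower at 24 h, against 87 strong falls from the libraries.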

How the results depend on the processing

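Rises remained the larger part of the strong changes in M2 under every alternative fit of the library columns, at 79.1% to 92.2%. A pseudocount of 5 gave 359 strong rises and 54 strong falls, quantile normalization 503 and 133 (79.1% rises), and the fit with all 4 groups 371 and 56, with 1447 genes called (781 higher, 666 lower); without WT 12 h replicate 3 that fit gave 774 and 89, with 6713 genes called. Limma treat gave 306 and 31, and 4-fold gave 49 and 5, by construction fewer. The merged columns, added after the data were seen, gave 636 and 951 (40.1% rises), and the cause was not tested. FPKM as deposited gave 3442 rises and 2854 falls and an equal sum 3488 and 2796, while quantile normalization gave 2667 and 3534. Leaving out 1 library gave 5737 to 6294 genes called, 741 to 823 strong rises, 79 to 113 strong falls and 87.9% to 90.4% rises; with 1 library left at 12 h, it is assumed to vary like the 24 h libraries. In the fit with all 4 groups scaffold00069.g2383 and DGAT1A missed the threshold (limma adjusted p = 0.26 and 0.23), and without WT 12 h replicate 3 both passed it (5.4e-13 and 0.00064).

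In M2 the differences between replicates 1 and 2 at 24 h and at 12 h correlated at 0.0145 across genes. With M2 12 h replicate 1 the shallower library, this cannot show whether replicates of the same number were paired. With a replicate block 5745 genes were called in M2, 776 strong rises and 88 strong falls. The interaction was blocked only in the fit with all 11 libraries, where 0 genes were called, against 34 without a block.

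WT calls with all 6 libraries (300, with 88 strong rises and 52 strong falls) became 6599, 343 and 167 without WT 12 h replicate 3, 129 genes (26 strong falls) for FPKM as deposited and 5 (2 and 3) with an equal sum; the median log2 change was then 0.13 and 0.23. The 34 interaction calls (16 and 4 at 2-fold) became 3415 (186 and 33) without that library and 18 with an equal sum, where 2 were at least 2-fold lower in M2, as for FPKM as deposited. Interaction fits that left out an M2 library were run only with WT 12 h replicate 3 kept in, so they do not bear on the 3415 calls. Leaving out 1 M2 library gave 0 to 2 interaction calls, 0 to 2 at least 2-fold higher and 0 lower.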
